A study of Homo sapiens with 4 samples.

Results

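Splice junctions were examined that had no read in HEK293T cells given wild-type SF3B1 and at least 5 unique reads in each of 3 libraries from cells given a mutant SF3B1. A junction is the gap that a spliced read leaves between a donor (the 5′ end of an intron) and an acceptor (its 3′ end). A member had a splice motif known to the aligner (motif codes 1 to 6), lay outside the mitochondrial genome, and had 0 unique and 0 multiply mapped reads in the wild-type library. Of 916264 junctions with these motif codes outside the mitochondrial genome listed in any library, whether read in WT or not, 2115 were members. Members were chosen by the unique and multiply mapped read counts of all 4 libraries, so their absence in 1 library and presence in 3 is the rule and not a finding. The same rule with R625H in the place of wild type gave 893 junctions, and these are set beside the members throughout.

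HEK293T is a human embryonic kidney line that carries the SV40 large T antigen. The 4 libraries came from cells transfected by Lipofectamine with an expression vector for wild-type SF3B1 (WT), SF3B1-R625H, SF3B1-K666T or SF3B1-K700E. The labels give 1000 ng of plasmid for R625H and K666T and 2000 ng for K700E, and no amount for WT. The labels record no change to the cells' own SF3B1 genes, so vector and endogenous SF3B1 cannot be told apart here, and an untransfected library was not analysed here. Each group is 1 library of polyadenylated RNA, so no difference has a replicate check and no p-value is given; intervals cover counting error only. Reads of the SF3B1 gene, which pool vector and endogenous transcripts, were 505.9 to 520.9 CPM (gene counts scaled to the library's total) in the 4 libraries. Markers fixed for the line were read (LIN28B 151.9 to 164.7 CPM), though PAX2 was low at 1.748 to 2.65 CPM. Of the markers fixed as absent, PTPRC and CD3E (blood) were at most 0.088 CPM, but COL1A1 (fibroblast) was read at 20.85 to 24.82 CPM.

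SF3B1 is the largest subunit of SF3b, the part of the U2 small nuclear ribonucleoprotein that holds the branch point, the adenosine to which the intron's 5′ end is joined. The amino acids changed here lie in its HEAT repeats, where changes recur in leukaemia, myelodysplastic syndrome and uveal melanoma. Such proteins are known for letting the spliceosome use a different branch point and, with it, a cryptic AG a short way upstream of the usual acceptor.

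The WT library had 72034388 unique junction reads, R625H 66015665, K666T 68666760 and K700E 71122502. WT was thus the deepest library, yet it listed the fewest junctions, 468541 against 515327 to 536450. Its share of unmapped reads was also the lowest, 8.839% against 16.46% in R625H, 17.31% in K666T and 15.17% in K700E. The part of this difference in the results was not tested. The aligner's flag for a known junction was set for 99.84% to 99.858% of listed junctions and for all 2115 members in each mutant library. The flag therefore separated nothing here, and 89 members (4.208%) matched an intron of GENCODE release 29, against 81.98% of all 189730 junctions with at least 5 reads in each mutant.

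The acceptors that set the members apart from the R625H-unread junctions lay just upstream of the acceptor normally used. For 17 of them the intron end could be read from an annotated transcript that retains the intron. The sequences below are 11 of these, chosen to span genes of different read depth and to include ADAMTS10 and CD2BP2, the 2 that differ from the pattern of the others. Each runs 5′ to 3′ from the intron and ends at the main acceptor. The first AG in capitals is the member's acceptor, unread in WT, and the last is the main acceptor, the one with most WT reads from the same donor. Letters are from GENCODE release 29 transcripts, and positions are those of the deposited junctions in hg19.
SYVN1: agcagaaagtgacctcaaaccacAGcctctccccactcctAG
LIG3: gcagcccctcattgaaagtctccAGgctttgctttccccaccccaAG
FASTKD1: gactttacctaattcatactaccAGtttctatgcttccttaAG
STIM1: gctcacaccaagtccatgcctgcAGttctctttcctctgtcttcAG
RPS6KB1: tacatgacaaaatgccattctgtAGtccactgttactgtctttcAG
TFRC: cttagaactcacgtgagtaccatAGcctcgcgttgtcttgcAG
PWP2: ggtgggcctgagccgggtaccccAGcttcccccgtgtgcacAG
MRPS27: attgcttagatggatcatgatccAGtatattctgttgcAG
HSPA8: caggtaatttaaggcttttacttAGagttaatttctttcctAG
ADAMTS10: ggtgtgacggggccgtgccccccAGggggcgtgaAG
CD2BP2: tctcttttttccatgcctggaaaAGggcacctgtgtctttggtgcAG

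In most of these stretches the run of C and T that usually precedes an acceptor stood between the 2 AGs. Over the 17 introns, the 20 bases before the member's AG held a median of 55% pyrimidines, and the bases between the AGs 75%. The stretch between was the richer in 15 of 17. The exceptions were ADAMTS10, a secreted metalloprotease, with 22.2% between and 55% before, and CD2BP2, a spliceosome-associated protein, with 60% and 65%. In ADAMTS10 the main acceptor rests on 1 WT read, and the member is an annotated intron. Adenine made up a median of 20% before the member's AG and 10.5% between the AGs. In 15 of the 17 no other AG stood between. These 17 were those for which an annotated transcript held the letters, so they are not a random draw of the upstream members.

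STIM1, a calcium sensor of the endoplasmic reticulum, shows the pattern at chr11:4104213-4104471 (plus strand). Its acceptor 21 nt upstream was unread in WT and had 28 reads in R625H, 24 in K666T and 12 in K700E. Its donor carried 285, 217, 268 and 283 reads in those libraries, so 12.9%, 8.96% and 4.24% of donor reads used it in the mutants. SYVN1, a ubiquitin ligase of the same compartment (chr11:64900741-64900940, minus strand), had 0, 23, 28 and 11 reads at an acceptor 17 nt upstream, of 264, 237, 241 and 220 at the donor. FASTKD1, a mitochondrial RNA-binding protein (chr2:170388019-170393736, minus strand, 18 nt upstream), had 0, 30, 12 and 13 reads, of 341, 211, 279 and 279. The order among the mutants differed between these 2 genes. ADAMTS10 (chr19:8654470-8654772, 11 nt upstream) had 10, 13 and 25 reads of 13, 20 and 26 at the donor in R625H, K666T and K700E. Its donor had 1 read in WT, so the share there is not known and the main acceptor rests on that read. The ADAMTS10 member is itself an annotated intron. CD2BP2 (chr16:30365402-30365504, 22 nt upstream) had 5, 10 and 7 of 1068, 1126 and 1566, and 0 of 1160 in WT. LIG3, a DNA ligase (chr17:33319712-33321272, plus strand), had 0, 27, 19 and 10 reads at an acceptor 22 nt upstream, of 295, 184, 191 and 203. PWP2, a ribosome biogenesis factor (chr21:45538715-45539249, plus strand), had 0, 42, 8 and 6 reads at 18 nt upstream, or 7.94% of donor reads in R625H against 1.70% and 1.21% in K666T and K700E. TFRC, the transferrin receptor (chr3:195782191-195785154), had 14, 11 and 10 reads in R625H, K666T and K700E and MRPS27, a mitochondrial ribosomal protein (chr5:71524211-71528269), 15, 8 and 10, with 717 and 771 donor reads in WT.

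RPS6KB1, the S6 kinase, held 2 upstream acceptors in successive introns. The one printed (chr17:58018305-58022745, 21 nt upstream) had 31, 17 and 21 reads in R625H, K666T and K700E, and the next (chr17:58022880-58023893, 18 nt upstream) 14, 18 and 10. In an abundant transcript the same kind of acceptor took a very small share. HSPA8, a constitutive chaperone (chr11:122929211-122929339, minus strand), had 51, 40 and 33 reads, 0.336%, 0.244% and 0.216% of its donor reads. The WT library had 14798 reads at this donor and none at the upstream acceptor.

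In all, 147 members (6.95%, Wilson 95% interval 5.943% to 8.114%) had a new acceptor 10 to 30 nt upstream of the main acceptor of their donor. The R625H-unread set held 8 of 893 (0.896%, interval 0.455% to 1.76%). Among all junctions with at least 5 reads in each mutant, acceptors at this distance that no other WT junction used made up 1.14%. With R625H in the place of WT, the share was 0.908% of those read in WT, K666T and K700E. Most junctions of these backgrounds were themselves read in WT or R625H, respectively, unlike the members. Members were 1.11% of all junctions read in the 3 mutants, and R625H-unread junctions 0.481% of all read in the other 3. With K666T or K700E as the library left out, 747 and 808 junctions were unread there and read in the other 3, of which 8 and 10 were upstream acceptors. The upstream acceptors were thus frequent only with WT as the unread library, among the 4 libraries taken in turn.

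The 147 lay in a narrow band. Their median distance was 18 nt (quartiles 15 and 21 nt), and 120 lay 13 to 22 nt upstream. Only 5 members lay 1 to 9 nt upstream and 57 lay 31 to 100 nt upstream. The distance was a multiple of 3 for 55 and not for 92, or 37.41% in frame by length alone. Among all 2162 acceptors at this distance read in the mutants, whether read in WT or not, the share was 43.11%. The main acceptor was annotated for 141 and began a coding exon for 136, while 7 of the upstream junctions were themselves annotated introns. They fell in 144 genes.

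**Figure D1:**
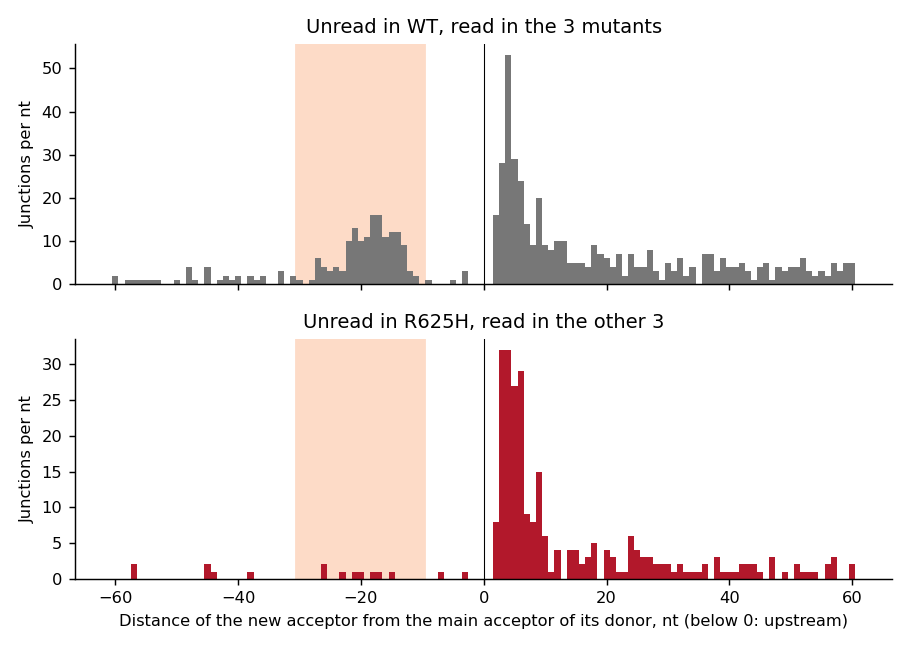
Number of new-acceptor junctions at each distance from the main acceptor of their donor, from 60 nt upstream (below 0) to 60 nt downstream, for junctions unread in WT (top) and in R625H (bottom). The shaded window of 10 to 30 nt upstream holds 147 junctions in the top panel and 8 in the bottom one, while both panels have a peak just downstream.

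Shares of reads at the donor show how much each upstream acceptor was used. In 141 of the 147 every library had at least 20 reads at the donor. Over these, the median share was 3.81% in R625H, 2.55% in K666T and 2.52% in K700E, and 4.37%, 2.89% and 2.87% with multiply mapped reads added. The lowest of the 3 mutant shares was at least 10% for 10 acceptors, at least 5% for 26 and at least 2% for 72. In 140 of them the limit that 0 reads allow in WT (3 counts over the donor's WT reads) lay below the lowest mutant share. The rule sets 0 reads in WT and at least 5 in each mutant, so this mostly follows where donor depth is similar. It adds no evidence beyond the rule.

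Genes with high shares have varied roles. ARMC9, a cilium protein (chr2:232196610-232209660, 26 nt upstream), had 29 of 96 reads in R625H, 20 of 123 in K666T and 19 of 94 in K700E, against 0 of 113 in WT. MECOM, a transcription factor gene of blood stem cells (chr3:168810909-168812863, 18 nt), had 32 of 104, 16 of 110 and 15 of 92, against 0 of 91. CC2D1A (chr19:14031736-14034130, 15 nt) had 40 of 247, 32 of 278 and 32 of 281, against 0 of 248. Its shares of 16.2% (12.1% to 21.3%), 11.5% (8.27% to 15.8%) and 11.4% (8.18% to 15.6%) overlap one another, and 0 of 248 allows 1.21% in WT.

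TRIM37, a ubiquitin ligase (chr17:57148330-57153007, 21 nt), had 59 of 307 reads in R625H, 26 of 281 in K666T and 25 of 281 in K700E, against 0 of 368 in WT. Its share of 19.2% (15.2% to 24%) in R625H lies above the intervals of the other 2 mutants, 9.25% (6.39% to 13.2%) and 8.90% (6.10% to 12.8%). TTLL7, which adds glutamate chains to tubulin (chr1:84373370-84376847, 25 nt), had 16 of 52, 7 of 73 and 6 of 68, against 0 of 89, and here too R625H lay above both. FBN2, a fibrillin of elastic fibres (chr5:127624271-127624818, 21 nt), had 18 of 129, 16 of 144 and 15 of 142, against 0 of 187. PPM1M, a protein phosphatase (chr3:52283339-52283671, 14 nt), had 17 of 94, 18 of 109 and 12 of 82, against 0 of 113.

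Not every high share was highest in R625H. CDK8, the kinase of the Mediator complex (chr13:26970492-26971275, 14 nt), had 14 of 170 reads in R625H, 24 of 218 in K666T and 19 of 180 in K700E. DIP2A (chr21:47970658-47971529, 17 nt) had 8 of 68, 18 of 89 and 7 of 86. HECTD2 (chr10:93244413-93244921, 15 nt) had 15 of 74, 7 of 68 and 12 of 51. SEPSECS, which makes selenocysteine on its transfer RNA, ZNF445, GUCY1B1 and KLHDC8B complete the 14 reported of those with the highest lowest share, with 5 to 14 reads in each mutant. Of the 14, R625H had the highest share in 9, K666T in 2 and K700E in 3, and the R625H interval lay above both others in 2.

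**Figure D2:**
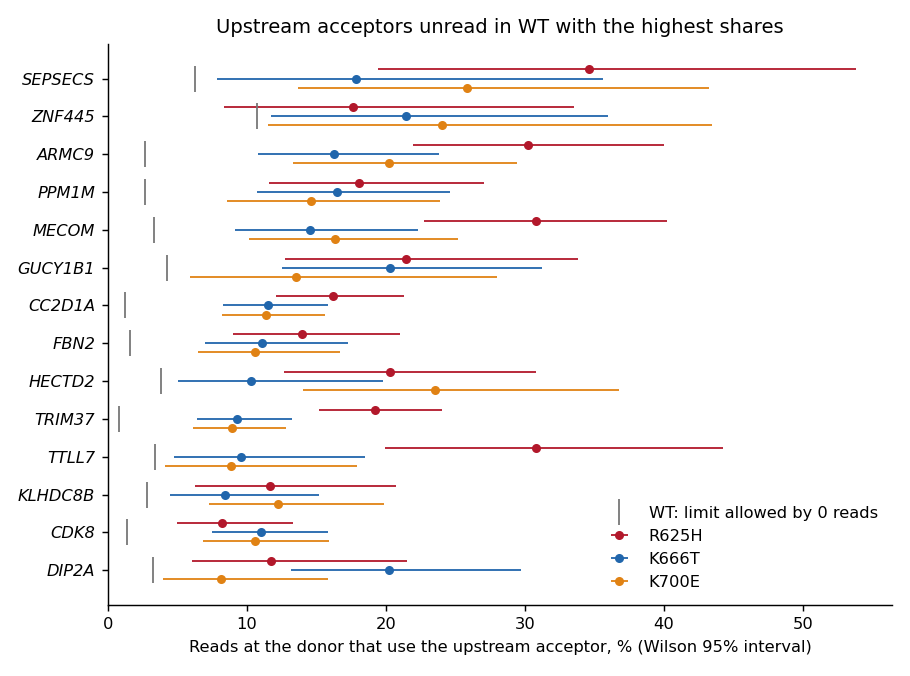
Percentage of unique reads at the donor that use the upstream acceptor in R625H, K666T and K700E for 14 genes among those with the highest lowest share, with Wilson 95% intervals as bars. The grey tick is the limit that 0 reads allow in WT. TRIM37 and TTLL7 have R625H intervals above the other 2, and in the other genes drawn the R625H interval overlaps at least 1 of them.

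Over all 147, levels scaled to the unique junction reads of the library (RPM) were highest in R625H for 91 (61.9%), in K666T for 26 and in K700E for 30. Median levels were 0.212, 0.146 and 0.155 RPM. Over all 2115 members the split was nearly even, 744 (35.2%), 658 and 713. By share at the donor, R625H was highest for 92 of the 141 with enough reads, and for 93 with multiply mapped reads added. The rule set only a floor of 5 reads in each mutant, so this order is a description. R625H and K666T had the same labelled plasmid amount, and K700E more.

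**Figure D3:**
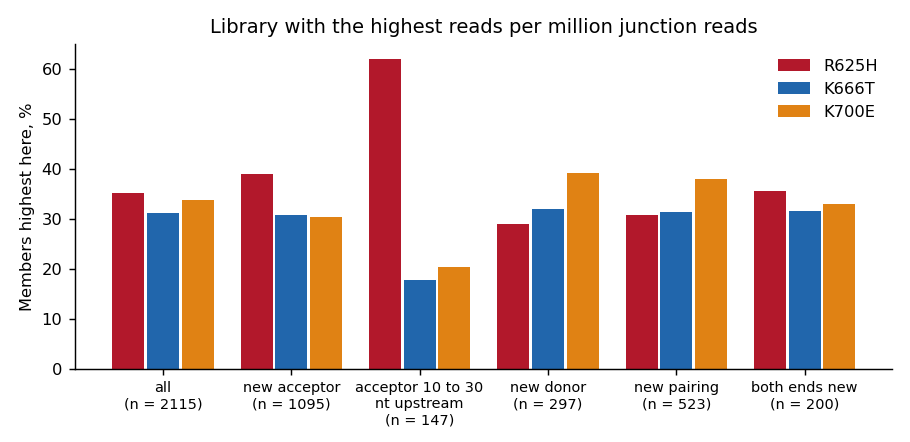
Percentage of members of each kind whose level, scaled to the unique junction reads of the library, was highest in R625H, K666T or K700E. Upstream acceptors stand out with 61.9% highest in R625H, against 35.2% of all members.

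Junctions to the main acceptors beside the upstream ones differed little from WT. Reads of the partner junctions, scaled to the library, had a median log2 difference from WT of −0.16 in R625H, −0.06 in K666T and −0.10 in K700E for the upstream members. For all new acceptors the medians were 0.01, 0.03 and 0.01. The quartile ranges include 0 in each case, −0.33 to 0.07 in R625H for the upstream members.

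Acceptors just downstream of the main one were found in both sets, with the larger share among R625H-unread junctions. Acceptors 1 to 9 nt downstream numbered 193 among members (9.125%) and 160 among R625H-unread junctions (17.92%). At 4 nt downstream alone there were 53 and 32. Of the 72 members with at least 100 reads in each mutant, 11 were of this kind. RPS6, a small-subunit ribosomal protein (chr9:19378505-19378705, 8 nt downstream), had 970 reads in R625H, 3793 in K666T and 660 in K700E, against 0 of 54857 donor reads in WT. Its shares of 1.90%, 7.11% and 1.52% became 8.19%, 8.26% and 6.47% with multiply mapped reads added, so the higher value in K666T is one of unique reads only. RPL15, of the large subunit, shows the same in reverse: its junction at chr3:23958665-23959345, 5 nt downstream, had 330 reads in WT, 1121 in K666T and 1696 in K700E, and none of 17613 in R625H. With multiply mapped reads its shares in WT, K666T and K700E went from 1.62%, 5.98% and 5.93% to 9.64%, 8.20% and 8.97%.

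Reads in the left-out library differed in kind between these groups. Of 1290 upstream acceptors with at least 20 reads in each mutant, most had at least 20 in WT too, and 834 had 100 or more. Below that, WT had 0 reads at 19, 1 to 4 at 47, 5 to 9 at 28 and 10 to 19 at 49, a graded series of low values. With R625H left out the same counts were 1, 0, 0 and 9 of 1093. With K666T they were 0, 0, 1 and 10 of 1071, and with K700E 2, 1, 0 and 7 of 1065. Of 1099 acceptors 1 to 9 nt downstream, WT had 0 reads at 66, 1 to 4 at none, 5 to 9 at 1 and 10 to 19 at 31. There R625H had 51, 0, 1 and 44 of 1027. K666T had 32, 2, 1 and 25 of 988, and K700E 41, 1, 4 and 41 of 1001. These junctions thus had either 0 or at least 10 reads with few between, whichever library was left out.

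**Figure D4:**
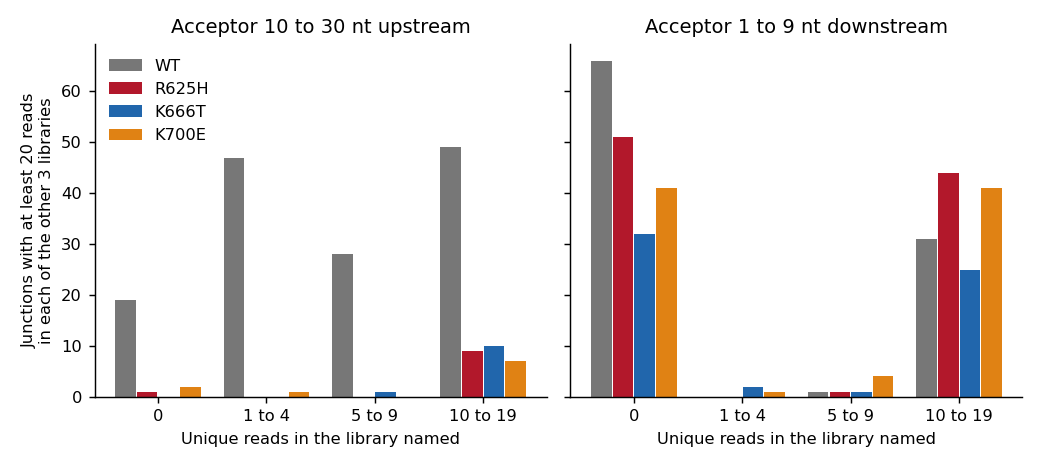
Number of junctions with at least 20 reads in each of the other 3 libraries, by unique reads in the library named (0, 1 to 4, 5 to 9, 10 to 19). Most junctions of both kinds had at least 20 reads in the library named and are not drawn. Among those drawn, upstream acceptors (left) fill all low bins in WT and hardly any in the mutants. Acceptors 1 to 9 nt downstream (right) that are drawn sit mostly at 0 or at 10 to 19 in all 4 libraries.

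The same gap held for very well-read junctions with all kinds pooled. Of 80539 junctions with at least 100 reads in each mutant, 72 had 0 unique reads in WT and only 12 had 1 to 19. The corresponding pairs were 36 and 5 for R625H, 33 and 2 for K666T, and 44 and 5 for K700E. A junction with at least 100 reads in 3 libraries and none in the other one was therefore seen with every library in that place. The part that alignment or the listing of junctions library by library plays in these zeros was not tested. Upstream acceptors taken alone did not show this gap in WT. Of 788 with at least 100 reads in each mutant, WT had 0 reads at none and 1 to 19 reads at 4.

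By their ends, new acceptors made up 1095 of the 2115 members (51.77%), new donors 297 (14.04%), new pairings of ends both known in WT 523 (24.73%) and junctions with both ends new 200 (9.456%). An end was known when another junction read in WT used it. The R625H-unread set had 416 (46.58%), 125 (14%), 228 (25.53%) and 124 (13.89%). Junctions with both ends new were the less frequent among members, with Wilson intervals of 8.28% to 10.8% against 11.8% to 16.3%. The intervals for new acceptors, 49.6% to 53.9% and 43.3% to 49.9%, touch, and those for new donors and new pairings overlap. With an end counted as known only from 10 reads, new pairings were 15.6% and both ends new 16.5% of members. Among all 189730 junctions with at least 5 reads in each mutant, the 4 shares were 23.35%, 18.55%, 34.99% and 23.11%. Most of these were read in WT themselves, and a new end there is one that no other WT junction used. Of the 43847 with both ends new, 41425 were introns of GENCODE release 29, so these shares are not of like kind.

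**Figure D5:**
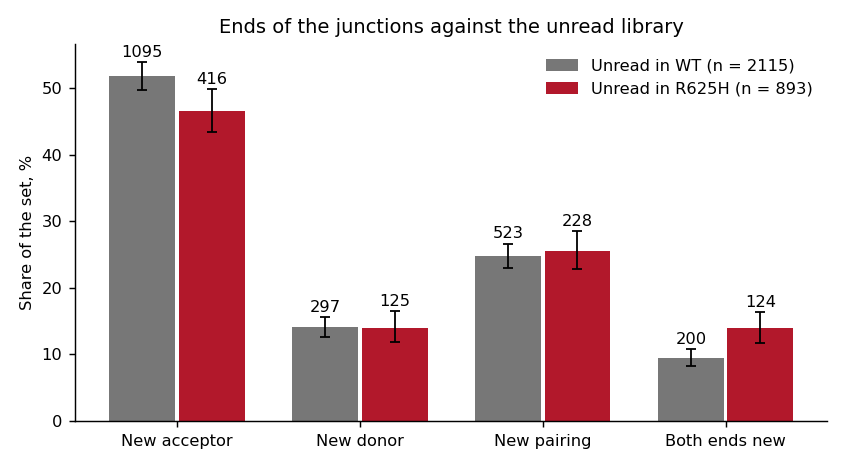
Share of the 2115 WT-unread and 893 R625H-unread junctions with a new acceptor, a new donor, a new pairing of known ends or both ends new. Bars are Wilson 95% intervals and the counts stand above them. New acceptors are the largest class in both sets.

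The new acceptors with most reads lay in abundant housekeeping transcripts. RPL4, of the large ribosomal subunit (chr15:66793828-66794125, 15 nt downstream of the main acceptor), had 1511, 1546 and 1209 reads in R625H, K666T and K700E, or 5.67%, 5.69% and 4.51% of donor reads, and 0 of 27472 in WT. RPS3A (chr4:152022315-152024115, 93 nt downstream) had 996, 1034 and 577, and LDHB, a lactate dehydrogenase subunit (chr12:21790118-21791286, 11 nt downstream), 692, 683 and 530. HMGN2, RPS23, RPL39 and HSP90AB1 followed with lowest counts of 296 to 316. With RPS6, described above, these were the 8 with the highest lowest count, and all 8 lay downstream of the main acceptor.

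Ribosomal protein genes held 42 of the 2115 members (1.99%) but 14 of the 72 with at least 100 reads in each mutant (19.4%). Genes with members had a median of 97.6 CPM in WT against 27 CPM for all genes tested, and those of the 72 a median of 715 CPM. Genes with R625H-unread junctions had 94.2 CPM. ACTG1, a cytoplasmic actin, is the counterpart there: a junction at chr17:79479145-79479257, 24 nt downstream of its main acceptor, had 857, 764 and 806 reads in WT, K666T and K700E and 0 of 24951 in R625H. The most-read junction of that set, at chr12:6646518-6646881 within GAPDH, had 2537, 2272 and 1844 reads.

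New donors were fewer and mostly low. Of the 297, 168 lay downstream of the acceptor's main donor and 129 upstream, and 35 within 30 nt of it. EEF1A1, the elongation factor that brings transfer RNA to the ribosome (chr6:74228440-74229175), had 1006, 898 and 1250 reads at a donor 44 nt downstream of the main one, while its acceptor had 5 reads in WT. EIF5A, another translation factor (chr17:7213031-7214336), had 147, 110 and 208 reads from a donor 89 nt upstream, at an acceptor with 15883 WT reads. SET, RPS3A, RPS6 and SEC13 were the other named genes among the 8 with most reads.

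New pairings joined ends already used in WT with other partners. Of the 523, 334 (63.9%) left out both the main acceptor and the main donor of their ends, as exon skipping does, against 124 of 228 (54.4%) in the R625H-unread set. RACK1, a ribosome-bound scaffold (chr5:180666533-180668491), had 468, 525 and 479 reads, and EEF1G (chr11:62335001-62339095) 269, 269 and 163.

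SERBP1, an RNA-binding protein on the list of genes with known SF3B1-mutant splicing, showed a large spread between the mutants in unique reads only. Its new pairing at chr1:67881023-67885850 had 7 reads in R625H, 68 in K666T and 106 in K700E, or 3.27%, 22% and 26.4% of reads at a donor with 270 reads in WT. With multiply mapped reads added the shares were 76.4%, 78.5% and 67.9%, and the spread was gone. CANX, a lectin chaperone, had another order at chr5:179150021-179150664, with 75, 7 and 76 reads, or 1.17%, 0.101% and 0.951% of donor reads. Here too the low value in K666T was one of unique reads, since with multiply mapped reads the shares were 1.35%, 0.934% and 1.04%. Over all members, 614 of 2115 (29%) had a donor share that moved by over 1.5 times in some mutant when these reads were added. For new donors and junctions with both ends new this share had a median of 100%, so it could hardly move. It did so in 22 of 297 (7.41%) and 17 of 200 (8.5%), and shares at the acceptor were not compared in this way. Among new pairings 268 of 523 (51.2%) did, among acceptors 1 to 9 nt downstream 76 of 193 (39.4%), and among the upstream acceptors 14 of 147 (9.52%).

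Junctions with both ends new touch no splice site read in WT. Of the 200, 141 could be placed in a gene, and 17 spanned at most 50 nt, shorter than introns usually are. The one with the highest lowest count, at chr2:232573305-232573329, spans 25 nt and had 1037, 947 and 1056 reads. RPL8 (1299, 1329 and 896 reads), ENO1, a glycolytic enzyme (992, 1086 and 788), and DDX21, a nucleolar helicase (557, 559 and 587), came next by that count among named genes. All 3 junctions lie within the bounds of the gene.

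Pairs of members enclosed 12 short segments that would form a new exon of 10 to 500 nt. In 10 of them, in 9 genes and with a median length of 98.0 nt, the outer donor and acceptor were read in WT. TRAPPC10, of a vesicle tethering complex (chr21:45452683-45452816, 134 nt), had 14, 11 and 19 reads into the segment and 14, 23 and 12 out of it in R625H, K666T and K700E. SMARCAD1, a chromatin remodeller (chr4:95128992-95129114, 123 nt), had 10, 9 and 9 in and 7, 7 and 7 out. AKAP8L, LRRC40, CRCP, SLC25A33, SLC37A3 and TAF15 were among the others, and 3 of the 10 had a length that is a multiple of 3.

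Members were spread thinly over genes. They fell in 1584 genes, of which 1277 held 1 member and 23 held at least 4. Those 23 had 102 members, of which 54 were new acceptors, 15 new donors, 27 new pairings and 6 had both ends new. HNRNPD and TAF15, both RNA-binding proteins, held 6 each. TAF15 had 40, 48 and 40 reads at an acceptor 11 nt downstream (chr17:34147253-34147346) and 120, 132 and 191 at one 243 nt downstream (chr17:34171373-34171723). HNRNPD had 111, 154 and 82 reads at one 16 nt downstream (chr4:83279958-83280623), and its lowest member 5 in each mutant. CANX, FASN, HSP90AB1, HUWE1 and TARS1 were among those with 5.

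Gene expression was not used by the rule, and most members lay in genes whose level was close to that of WT. In bulk RNA, fewer cells expressing a gene and less RNA per cell cannot be told apart. Of 14847 genes tested (at least 1 CPM in 1 library), R625H had 97 at least 2-fold higher than WT (0.653%) and 4 lower (0.0269%). K666T had 103 higher (0.694%) and 1 lower (0.00674%), and K700E 194 higher (1.31%) and 65 lower (0.438%). Among 1548 tested genes with members, 13 (0.84%), 13 (0.84%) and 17 (1.1%) were higher and 0, 0 and 2 lower, close to the background. Of 1948 members in tested genes, 1917 (98.41%) lay in genes within 2-fold of WT in all 3 mutants, as did 98.05% of all genes. Of the 144 upstream acceptors in tested genes, 143 did.

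Junctions with both ends new were the exception. Of the 122 tested genes that hold them, 7 (5.74%), 7 (5.74%) and 8 (6.56%) were at least 2-fold higher in R625H, K666T and K700E. Here a junction can be unread in WT because the transcript itself was scarce there, and a low level and a change of splicing cannot be told apart. OAS2, an antiviral enzyme that senses double-stranded RNA, had 28 gene reads in WT against 349, 245 and 4004. Its members at chr12:113440908-113442738 and chr12:113444406-113445509 had 15, 7 and 140 reads and 6, 7 and 126, and both match annotated introns. MX2, an antiviral GTPase, had 7 gene reads in WT against 85, 52 and 583, and IFIH1, an RNA sensor, 96 against 250, 225 and 904.

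In all, 11 members lay in 9 genes at least 2-fold higher in every mutant: CXCL11, ELAPOR1, FGF21, IFI6, IFIH1, MX2, OAS2, REC8 and RIGI. These were 0.581% of the 1548 tested genes with members, close to the 0.445% (66 genes) among all 14847 tested. FGF21, a stress hormone, had members' reads of 10, 9 and 7 (chr19:49259042-49259337) and a log2 difference in gene level of 1.39, 2.37 and 2.33. RIGI, another RNA sensor, held the upstream acceptor of the interferon list, 13 nt upstream (chr9:32492550-32493758), with 5 of 206, 5 of 151 and 27 of 1071 donor reads and 0 of 45 in WT. Its mutant shares were 2.43%, 3.31% and 2.52%, all below the 6.67% that 0 of 45 allows. It was therefore not detectable at this depth whether WT used it less.

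Genes with members made up 10.4% of all genes tested (1548 of 14847), and this is the background for the lists. R625H-unread junctions lay in 734 of the genes tested. Genes with members had a median of 97.6 CPM in WT against 27 CPM for all genes tested. The lists were not matched for level. The interferon list held 17 members in 11 of 81 genes (15.7% of the 70 tested), of which 9 were new acceptors, 2 new pairings and 6 had both ends new. Levels of the 11 genes had a median log2 difference of 1.43 in R625H, 1.21 in K666T and 3.69 in K700E, with 8, 6 and 10 of them at least 2-fold higher. The list as a whole was higher too: 37, 31 and 62 of its 70 tested genes were at least 2-fold higher, with medians of 1.09, 0.75 and 3.07. The rule asks for 0 reads in WT and at least 5 in each mutant, which favours genes that are higher in the mutants. The levels of the 11 genes are therefore no result apart from the rule. EIF2AK2, the kinase PKR, held 2 and ADAR, an RNA-editing enzyme, 2. IFI27 (chr14:94577144-94581196) had 15, 8 and 163 reads, as 17.0%, 12.1% and 13.9% of donor reads, below the 18.8% that 0 of 16 allows in WT.

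Promoters of 8 of these 11 genes were given by RefSeq (GRCh38.p14, 250 bases before to 50 after the start), and 4 held GAAA, any pair of bases and GAAA again on either strand, the core of an interferon response element. Of all 35116 promoters given, 3.57% did, and 42 of 1315 (3.19%) among genes with members. The 4 windows are shown with the match in capitals, read on the gene's strand. All 4 genes were at least 2-fold higher in K700E, with log2 differences of 1.59 (EIF2AK2), 3.69 (IFI27), 3.83 (IFI6) and 3.23 (IFIH1). EIF2AK2, at 0.64 in R625H and 0.50 in K666T, and IFI27, at 0.90 in K666T, were below that fold elsewhere. In K700E, 10 of the 11 interferon genes with members and 62 of the 70 tested on the list were at least 2-fold higher, so the 4 do not stand apart. Promoters of interferon genes without members were not counted, so the motif cannot be tied to holding a member. A match is a description, not a site in use.
EIF2AK2: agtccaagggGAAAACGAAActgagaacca
IFI27: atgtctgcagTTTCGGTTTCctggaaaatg
IFI6: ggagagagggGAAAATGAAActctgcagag
IFIH1: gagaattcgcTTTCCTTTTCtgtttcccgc

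The list of genes known for cryptic acceptors in SF3B1-mutant cells held 11 members in 10 of 41 genes (25.6% of the 39 tested), none of them 10 to 30 nt upstream, and no R625H-unread junction. NSUN2, an RNA methyltransferase (chr5:6632045-6632711, 46 nt downstream), had 55, 67 and 47 reads, 4.65%, 5.16% and 4.54% of donor reads. COASY, of coenzyme A synthesis (chr17:40717330-40717530, 42 nt downstream), had 19, 22 and 15. BRD9, a chromatin reader (chr5:887543-889701), had 5, 7 and 5 reads at an acceptor far downstream. UQCC1, ANKHD1, SLC25A38, AP1G1 and CRNDE had 5 to 22. An acceptor with any read in WT is outside the rule, so these counts say nothing of acceptors used at a low level in WT.

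Splicing factors held 34 members in 18 of 50 genes (36%), against 11 R625H-unread junctions in 11. SF3B2, a partner of SF3B1 (chr11:65826810-65826965, 20 nt upstream), had 14, 11 and 15 reads, with another acceptor of the same donor 6 nt downstream at 63, 73 and 61. The upstream shares of 0.554%, 0.462% and 0.574% became 3.05%, 2.89% and 3.84% with multiply mapped reads added. HNRNPA2B1 had 5, 8 and 9 at an acceptor 19 nt upstream (chr7:26233013-26233194). SF3B1 itself held a member 2 nt downstream of a main acceptor (chr2:198257911-198260779) with 9, 14 and 10 of its donor's reads, 0.397%, 0.610% and 0.423%, or 2.01% to 2.51% with multiply mapped reads. None of the 50 genes was 2-fold higher or lower in any mutant.

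The stress list held 20 members in 9 of 22 genes (42.9% of the 21 tested) and 1 R625H-unread junction. HSPH1, a chaperone (chr13:31724335-31725083, 15 nt upstream), had 23, 8 and 7 reads, and HSP90AA1 (chr14:102548810-102549370, 28 nt upstream) 15, 19 and 12, against 0 of 1113 and 0 of 14696 donor reads in WT. The HSP90AA1 shares of 0.102%, 0.138% and 0.0854% became 5.59%, 5.43% and 5.01% with multiply mapped reads. Decay factors held 8 members in 6 of 16 genes (40% of the 15 tested) and spindle and cell cycle genes 6 in 5 of 19 (26.3%). Immediate early genes held 1 (DUSP1, 4.76% of the 21 tested) and NF-kB targets none (0 of 15 tested). CDK20, a cilium and cell cycle kinase (chr9:90582560-90584108), had 26 reads in each mutant at an acceptor 15 nt downstream.

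The threshold sat on a steep slope of low counts. The lowest of a member's 3 mutant counts had quartiles of 6, 8 and 14, and was 5 for 528 members (24.96%), of which 31 were upstream acceptors (5.871%). Just outside, 1014 junctions unread in WT had a lowest count of 4, with 53 upstream acceptors (5.227%), and 931 with at least 5 reads in each mutant had 1 unique read in WT, with 70 (7.519%). In the R625H-unread set the shares were 0.901% just inside, and 1.89% and 0.539% just outside. Another 72 and 36 junctions were left out for multiply mapped reads alone. Of the members, 2085 had GT-AG ends, 28 GC-AG and 2 AT-AC. They took 0.0902%, 0.0932% and 0.0856% of all unique junction reads in R625H, K666T and K700E.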

How the data were processed

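RNA from 4 HEK293T cultures, 1 library per group, was sequenced as stranded 100-base read pairs, per the labels. The files hold STAR 2.5.3a output on hg19, with aligner and build per the submitters' processing notes, which also name HTSeq. The authors deposited, for each library, unique and multiply mapped read counts per splice junction with the longest overhang in nt, and read counts per gene. For aligner settings and annotation, the sources used here give nothing. Rows that name no gene stayed out of gene totals of 82254731 to 90939945 reads.

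Members were taken by the rule given above. Shares have Wilson 95% intervals, and 0 reads allow up to 3 counts. Reads without molecular identifiers are not independent molecules, so both cover counting error only. Genes were named by matching intron order and lengths of GENCODE release 29 (GRCh38) to the hg19 junctions, with at least 2 introns falling together (matched: 16103 of the 18243 protein-coding genes that have this many). Of the members, 1685 were named by an end, 314 by lying within a gene and 116 not at all. Log2 ratios of CPM used counts opposite to read 1, a prior count of 10 and edgeR 4.0.16 without a test; DESeq2 1.42.0 gave alternative size factors. R 4.3.3 and Python 3.11.15 ran the analysis, and the classification was tested on simulated data.

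Members and gene lists were chosen with earlier results of these data known. Named junctions were: up to 12 in each of the known SF3B1 and interferon lists, the 8 with the highest lowest count in each class of ends, the 15 upstream acceptors with the highest lowest share and at least 20 donor reads per library, genes with at least 4 members, and the 6 R625H-unread junctions with most reads. Some items named by this rule are not reported here. Other names come from the printed sequences and the other lists, and were chosen after values were seen. Alternatives changed the read minimum, motif, overhang, window, known-end rule, multiply mapped reads, normalization, prior, filter and strand.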

Additional observations from a re-analysis of the deposited data

How the results depend on the processing

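The count of members follows the read minimum by construction: 5316, 808 and 387 at minimums of 3, 10 and 20 reads, and 2492, 362 and 185 R625H-unread junctions. Asking only for R625H and K666T, the mutants with the same labelled plasmid amount, gave 3948. The share of upstream acceptors was 5.81% and 4.91% at minimums of 3 and 20, 5.8% with those 2 mutants and 8.18% in a window of 10 to 50 nt, all above every value for the R625H-unread set (0.541% to 1.34%). With an end known only from 10 reads, new acceptors were 54.09%, new pairings 15.6% and both ends new 16.5% of members, and 14.11% and 20.94% of the R625H-unread set for the latter 2; this follows from fewer ends counting as known. K666T or K700E as the unread library and the 10-read rule for upstream acceptors were added after the data were seen. All 42 shares of the 14 named upstream acceptors stayed within their intervals with multiply mapped reads. However, donor shares of 614 of the 2115 members moved by over 1.5 times in some mutant, though those of new donors and both ends new could hardly move. Those of SERBP1, RPS6, CANX, SF3B2, SF3B1 and HSP90AA1 named above were among the 614. Gene counts stayed within 1.5 times in the alternatives run. No paired analysis was possible because each group is 1 library. Depth limits a zero in WT: a donor with few WT reads allows a share as high as that of the mutants.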

Other observations

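Some upstream acceptors had more reads than those named by share, and these were picked after their values were seen. CIZ1, a zinc finger protein (chr9:130941232-130941315, 18 nt upstream), had 105, 77 and 111 reads in R625H, K666T and K700E of 105, 99 and 111 at the donor, and the donor had 1 read in WT. SPINDOC (chr11:63585360-63585465, 23 nt) had 42 of 78, 39 of 73 and 59 of 89, and 0 of 16 in WT, which allows 18.8%. In CIZ1 the donor itself was hardly read in WT, so its share there is not known and its main acceptor rests on 1 read.

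Further upstream acceptors at well-read donors were picked in the same way. NUP98, a nuclear pore protein (chr11:3697620-3697738, 13 nt), had 53 of 505, 35 of 569 and 26 of 478 reads, and 0 of 602 in WT, which allows 0.498%. The importins KPNA6 (chr1:32573736-32620169, 19 nt) and KPNA1 (chr3:122152653-122156016, 17 nt) had 49, 31 and 59 and 29, 25 and 31 reads, and 0 of 497 and 0 of 613 in WT. NET1, a guanine nucleotide exchange factor (chr10:5497082-5498027, 22 nt), had 56 of 664, 38 of 714 and 58 of 700, and 0 of 591. DENR, a translation reinitiation factor, held the most-read new segment (chr12:123253585-123253836, 252 nt), with 133, 153 and 296 reads into it and 215, 233 and 169 out of it.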
